A study of Homo sapiens with 2 samples.

Results

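The genes described here make, balance and break down deoxynucleoside triphosphates (dNTPs), the building blocks of DNA. They are the 3 subunits of ribonucleotide reductase (RRM1, RRM2 and RRM2B), 4 enzymes of the thymidylate branch (TYMS, DUT, DCTD and DTYMK), the salvage kinases TK1 and DCK, and the dNTP hydrolase SAMHD1. They were chosen by gene symbol from the deposited expression table, and all 10 were found among its 46427 gene entries. NK92 is an established human natural killer (NK) cell leukemia line. After a pre-culture of 18 h, 1 dish received 10 µg/mL of PPMX-T003, an antibody that inhibits transferrin receptor 1, for 6 h, and 1 dish received nothing (Control); both were grown in the same medium with human serum. Each group was 1 polyA RNA sequencing library, with 46766416 gene counts in Control and 43178462 in PPMX-T003, so the differences had no replicate check. By the study's methods both dishes were grown for the same 6 h, while the deposited columns are headed 0 h for Control and 6 h for PPMX-T003.

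Ribonucleotide reductase converts ribonucleotides to deoxyribonucleotides. Its small subunit, RRM2 or RRM2B, holds a di-iron centre and a tyrosyl radical that the reaction needs, which ties DNA synthesis to the iron that transferrin receptor 1 brings into the cell. Cells can also recover deoxynucleosides through TK1 and DCK, while SAMHD1 hydrolyses dNTPs and DUT keeps deoxyuridine out of DNA.

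The line was checked against markers first. All 14 NK cell markers had counts, together 5188 counts per 1000000 counts (CPM) in Control and 5684 CPM in PPMX-T003, and the one with the most counts was IL2RB, with 56260 and 55986 counts. Of 6 T cell markers, CD3D, CD3G and CD8A were at 0 in both libraries, whereas TRBC1 had 3664 and 4100 counts and TRAC 1501 and 1312, and the list summed to 110 and 125 CPM. The 6 B cell and myeloid markers summed to 38 and 28 counts, led by CSF1R in Control (22 and 9) and CD79A in PPMX-T003 (14 and 12). All 5 erythroid markers were at 0. The label of an NK cell line therefore fitted both libraries. TFRC, which encodes the receptor that the antibody targets, had 19063 counts in Control and 18223 in PPMX-T003, a log2 difference of 0.05 (95% counting interval 0.02 to 0.08), and its level was 184 transcripts per 1000000 transcripts (TPM) in both. With the relation of the differences to transcript length and GC content taken out, here called the length and GC fit, its log2 difference was 0.17.

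All 10 genes were well counted, and none differed by as much as 1.2-fold between the libraries under the scaling used throughout, the trimmed mean of M values (TMM). TK1, at a log2 difference of 0.26, passed 1.2-fold under upper-quartile scaling (0.27). RRM2, TK1, DTYMK, DCTD and SAMHD1 were higher in PPMX-T003 than in Control beyond counting error, and RRM2B, DCK and RRM1 were lower, while the counting intervals of TYMS and DUT held 0 (that of DUT lay above 0 under upper-quartile scaling). TK1 lay farthest above Control and RRM2B farthest below, with −0.19. Together the 10 genes had 120375 counts in Control and 114863 in PPMX-T003, which was 0.257% and 0.266% of all counts. The level of an mRNA in a culture depends on the share of cells in S phase and on the RNA per cell, and these cannot be told apart in bulk RNA.

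These counts have to be read against all genes. Counting intervals are narrower for genes with more counts, so the shares that follow depend on depth. No background of genes matched for depth was made. An interval above 0 was found in 5 of the 10 genes and an interval below 0 in 3, compared with 27.8% and 32.1% of the 8359 genes with at least 1000 counts (both libraries added), and 21.8% and 23.9% of all 13665 genes with at least 20 counts. Under TMM none of the 10 reached 1.2-fold, which 2.79% of the genes with at least 1000 counts did upwards and 5.11% downwards (12.2% and 12.4% of all 13665). None reached 2-fold either. That size was rare among genes with at least 1000 counts, at 0.0359% upwards and 0.0239% downwards, against 1.27% and 1.38% of all 13665. The median log2 difference of the 10 genes was 0.035, and that of the genes with at least 1000 counts was −0.0098. With only a gene's longest transcript in the length and GC fit, the median of the 10 genes was 0.011. On the deposited TPM values most differences were lower, by a median of −0.054 (quartiles −0.064 to −0.044) over 6112 genes at 20 TPM or more, and the median was −0.030 for the 10 genes and −0.055 for the genes with at least 1000 counts. The 10 genes had the higher median on both scales, by 0.025 on TPM.

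**Figure D1:**
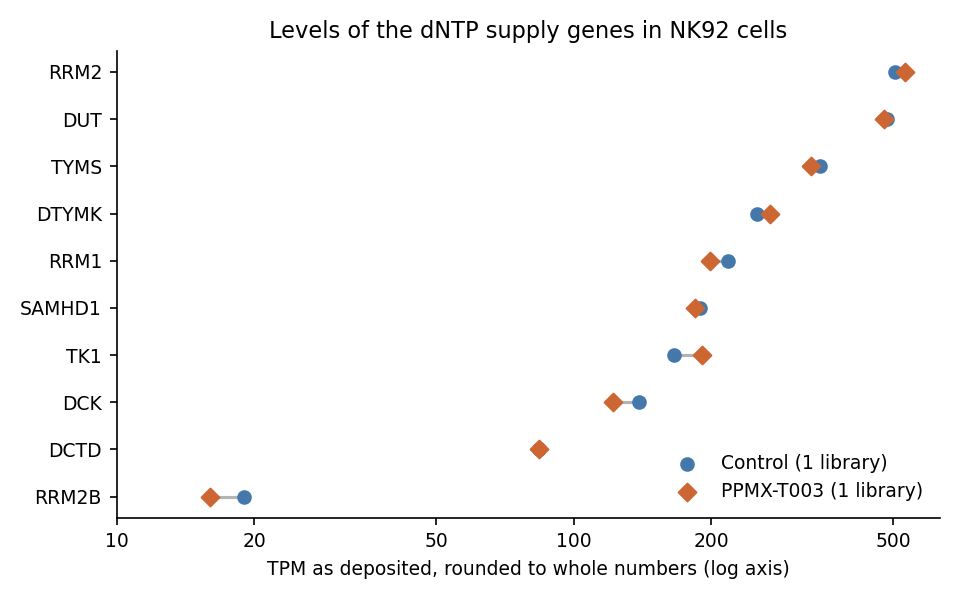
Level of each of the 10 genes, in TPM as deposited (whole numbers, log axis), in the Control library (circles) and the PPMX-T003 library (diamonds). RRM2 had the highest level in both (503 and 530 TPM) and RRM2B the lowest (19 and 16 TPM).

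Per transcript length, the levels spanned a wide range and kept nearly the same order in both libraries. In Control the order ran from RRM2 (503 TPM) through DUT (484 TPM), TYMS (346 TPM), DTYMK (252 TPM), RRM1 (217 TPM), SAMHD1 (189 TPM), TK1 (166 TPM), DCK (139 TPM) and DCTD (84 TPM) to RRM2B (19 TPM). In PPMX-T003 a single neighbouring pair changed places, as TK1 (191 TPM) stood above SAMHD1 (184 TPM). The spread of these levels between libraries of 1 condition was not measured, so the order of close neighbours such as RRM2 and DUT, or TK1 and SAMHD1, has no replicate check.

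The subunits of ribonucleotide reductase came apart. RRM1 (gene ID 6240), the large catalytic subunit, had 14167 counts in Control and 12427 in PPMX-T003, or 303 and 288 CPM. RRM2 (gene ID 6241), the small subunit made in S phase, had 34114 and 34368 counts, or 729 and 797 CPM. RRM2B (gene ID 50484), the small subunit that p53 induces and that serves cells outside S phase, had 1919 and 1548 counts, or 41.0 and 35.9 CPM. Thus RRM2 was higher in the PPMX-T003 library, and the other subunits were higher in Control. The log2 difference was −0.072 for RRM1 (95% counting interval −0.11 to −0.037), 0.13 for RRM2 (0.11 to 0.15) and −0.19 for RRM2B (−0.29 to −0.095). Among genes with at least 1000 counts, 33.8% lay at least as far below 0 as RRM1, 17.0% at least as far above as RRM2 and 11.6% at least as far below as RRM2B, so each of the 3 lay inside the central 95% of those genes, −0.33 to 0.27. The sizes depended on the processing: after the length and GC fit RRM1 lost its direction (0.0054) and RRM2 was at 0.22, and RRM2B was at −0.12, or −0.057 with the longest transcript in the fit. On TPM RRM2 was at 0.075, which was 0.13 above the median of the genes with at least 1000 counts on that scale (−0.055).

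A ratio of genes within a library needs no scaling between libraries. The TPM ratio of RRM2 to RRM1 was 2.32 in Control and 2.66 in PPMX-T003, and on the counts the ratio was higher by 0.20 on the log2 scale (interval 0.16 to 0.24). The TPM ratio of RRM2B to RRM2 was 0.0378 and 0.0302, a log2 change of −0.32 on the counts (−0.42 to −0.22). RRM2B thus made up 3.64% of the small subunit mRNA (RRM2 and RRM2B, in TPM) in Control and 2.93% in PPMX-T003. The small subunit message was nearly all RRM2 in both libraries, and slightly more so after exposure.

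Because RRM2 and RRM1 differed in direction on the counts, the letters before their RefSeq gene starts are shown. CCAAT, the letters that the factor NF-Y binds and that many cell cycle promoters hold, was searched on both strands (CCAAT or ATTGG) in windows from 250 bases before to 50 bases after each start. It was found 3 times before 1 RRM2 start, at −123, −93 and −66, at −249 before another RefSeq start of RRM2, and once before RRM1, at −28. The lines give 30 bases each from GRCh38, 5′ to 3′ on the plus strand, which is the strand of both genes, with CCAAT in capitals. The RRM2 windows are at chr2:10122604-10122633 and chr2:10122661-10122690. They lie upstream of the RRM2 start at 10122739 but downstream of another at 10122568. The RRM1 window is at chr11:4094645-4094674, upstream of its RefSeq start.
RRM2 at −123: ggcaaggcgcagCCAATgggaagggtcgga
RRM2 at −66: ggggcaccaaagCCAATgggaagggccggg
RRM1 at −28: gcatgtccatatCCAATggggcccatggga
CCAAT was present in 34.6% of all 35116 windows, and in 39.7% of the 27305 genes that they cover. A match describes the letters in the window and was not tested for binding.

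The thymidylate branch was mixed, with no gene lower beyond counting error. TYMS (gene ID 7298), which methylates dUMP to dTMP, had 11518 counts in Control and 10468 in PPMX-T003, or 246 and 243 CPM. DUT (gene ID 1854), which cleaves dUTP to dUMP, had 18498 and 17405 counts, or 395 and 403 CPM. For both genes a difference was not detectable under TMM scaling, as the log2 difference was −0.021 for TYMS (−0.059 to 0.018) and 0.029 for DUT (−0.00055 to 0.059). Under upper-quartile scaling DUT was at 0.041 (0.011 to 0.071), so its call depended on the scaling. TYMS was then at −0.0087 (−0.047 to 0.030). After the length and GC fit TYMS was at −0.023 and DUT at 0.046. With the longest transcript in the fit DUT was at 0.042, and TYMS at −0.070, below its counting interval. DCTD (gene ID 1635), the deaminase that turns dCMP into dUMP, had 4094 and 4003 counts, or 87.5 and 92.8 CPM. DTYMK (gene ID 1841), which phosphorylates dTMP to dTDP, had 5405 and 5524 counts, or 115 and 128 CPM. Both were higher in PPMX-T003 in CPM, by a log2 difference of 0.085 for DCTD (0.022 to 0.15) and 0.15 for DTYMK (0.094 to 0.20). After the length and GC fit these were 0.034 and 0.065, and with the longest transcript in the fit 0.022 for DCTD and −0.00042 for DTYMK, whose direction was then lost. The rounded TPM of DCTD was 84 in both libraries. Among genes with at least 1000 counts, 25.9% lay at least as far above 0 as DCTD and 13.2% as DTYMK.

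The TPM ratio of TYMS to DUT, the enzyme that uses dUMP to one that supplies it, was 0.715 in Control and 0.692 in PPMX-T003. On the counts the log2 change of that ratio was −0.050, with an interval from −0.099 to −0.0016 that just left out 0. This interval does not cover the reads that TYMS may share with ENOSF1, an overlapping gene described further on, and TYMS summed with ENOSF1 had a log2 difference of 0.0077 in place of −0.021. The other supplier of dUMP, DCTD, was not compared with TYMS as a ratio.

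TYMS and DUT were also the genes of this branch with the E2F letters before their starts, which is why their windows are shown. E2F factors drive S phase transcription, and the 8-letter forms searched on both strands were TTTGGCGC, TTTCCCGC, TTTGCCGC and TTTCGCGC. These occurred in 3.31% of the 35116 windows and in 3.99% of genes. Of the 9 genes of the 10 with windows, TYMS, DUT and DCK held a form, and RRM1, RRM2, DTYMK, TK1 and SAMHD1 held CCAAT, so no window had overlapping matches of both kinds. The TYMS match was at −39 (chr18:657603-657632, plus strand), and DUT had a match at −27 (chr15:48332159-48332188, plus strand) and another at −42. Capitals mark the E2F letters or their reverse complement.
TYMS at −39: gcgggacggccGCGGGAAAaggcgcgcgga
DUT at −27: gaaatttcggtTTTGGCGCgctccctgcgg
DTYMK had CCAAT at −92 and −24. A relation between these letters and the differences was not tested.

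The salvage kinases lay on opposite sides of 0 on the counts, but after the length and GC fit DCK was no longer below 0 (0.0063). With the longest transcript in the fit DCK was at −0.054. On TPM DCK was at −0.19, or −0.13 against the median of the genes with at least 1000 counts on that scale. TK1 (gene ID 7083), the S phase thymidine kinase, had 5086 counts in Control and 5620 in PPMX-T003, or 109 and 130 CPM. DCK (gene ID 1633), the deoxycytidine kinase, had 7250 and 6122 counts, or 155 and 142 CPM. TK1 was thus 19.8% higher in PPMX-T003 (counting interval 15.4% to 24.5%), just short of 1.2-fold under TMM scaling (log2 difference 0.26, or 0.13 after the length and GC fit and 0.11 with the longest transcript), and DCK was lower, with a log2 difference of −0.13 (−0.18 to −0.077). Only 2.91% of the genes with at least 1000 counts lay at least as far above 0 as TK1, while 22.1% lay at least as far below as DCK. The TPM ratio of TK1 to DCK was 1.19 in Control and 1.57 in PPMX-T003, a log2 change of 0.39 on the counts (0.31 to 0.46). That was the largest change among the 5 ratios on the counts. It became 0.12 once the relation of the differences to transcript length and GC content was taken out. The changes of RRM2B to RRM2 (−0.34) and of RRM2 to RRM1 (0.22) were then larger.

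The starts of these genes carried different letters, shown here because the kinases had the widest gap of any pair compared on the counts. A relation between the letters and this gap was not tested. TK1, on the minus strand, had CCAAT in its reverse form at −77 (chr17:78187112-78187141) and again at −46. DCK had an E2F form at 21 bases past its start (chr4:70993659-70993688, plus strand). Each line reads 5′ to 3′ in the direction of its gene, from GRCh38, with the match in capitals.
TK1 at −77: ggccgggcgctgATTGGccccatggcggcg
DCK at 21: gctgcctccgcGCGCCAAAgtcaaaccccg

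SAMHD1 (gene ID 25939), which limits dNTP pools outside S phase, had 18324 counts in Control and 17378 in PPMX-T003, or 392 and 403 CPM. The log2 difference was 0.041 (0.011 to 0.071), and 37.4% of genes with at least 1000 counts lay at least as far above 0. The deposited TPM was 189 in Control and 184 in PPMX-T003, a log2 difference of −0.038 on that scale, which was 0.016 above the median of the genes with at least 1000 counts. Set against the enzyme that makes dNTPs, the TPM ratio of SAMHD1 to RRM2 was 0.376 and 0.347, a log2 change of −0.087 on the counts (−0.12 to −0.050). The breakdown enzyme was therefore slightly lower relative to RRM2 in PPMX-T003, on counts and on TPM.

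**Figure D2:**
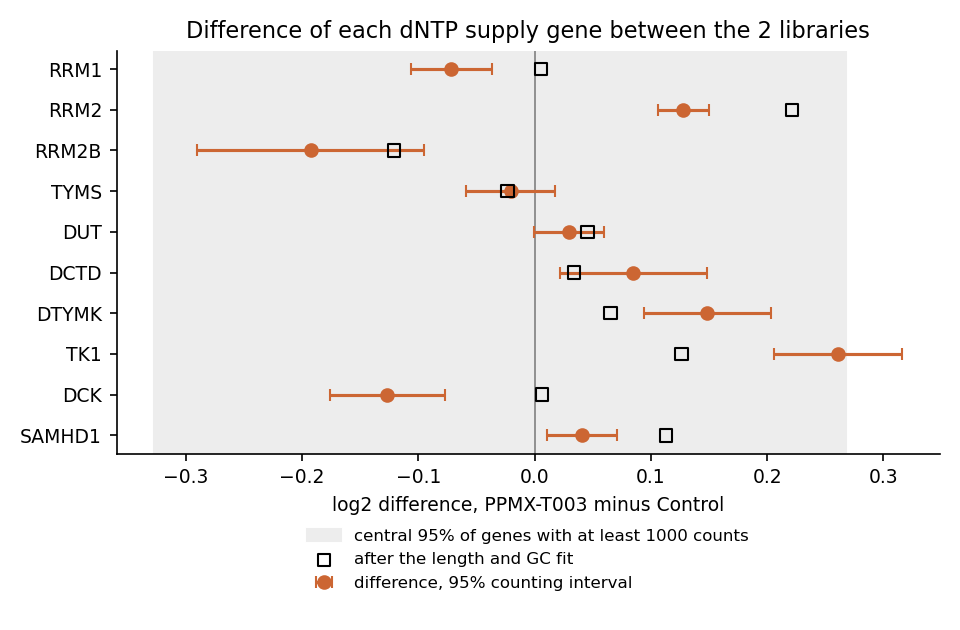
Log2 difference of each gene, PPMX-T003 minus Control, with its 95% counting interval (filled circles), and the difference left after a fit on transcript length and GC content (open squares). The grey band is the central 95% of genes with at least 1000 counts, −0.33 to 0.27; after the fit, RRM2 (0.22) lay highest and RRM2B (−0.12) lowest.

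Across all genes the difference between the libraries followed the base composition of the transcripts. When 9949 genes were cut into 10 groups of nearly equal size by GC content, the group with the lowest (31.8% to 39.9%) had a median log2 difference of −0.13 and the group with the highest (61.5% to 74.1%) had 0.12. Of the 10 dNTP supply genes, 5 lay within the quartiles of their own GC group (RRM1, TYMS, DUT, DCTD and DCK), 4 lay above them (RRM2, DTYMK, TK1 and SAMHD1) and RRM2B lay below. The lowest GC content was that of DCK (37.6%, log2 difference −0.13) and the highest that of TK1 (61.4%, 0.26). As a description over genes of the same pair of libraries, Pearson's r of difference and GC content was 0.81 and Spearman's rho 0.76 over the 10 genes, and 0.49 and 0.53 over 8219 genes with at least 1000 counts. Genes are not independent replicates, and the part of base composition in each difference was not tested.

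RRM2, SAMHD1 and RRM1 fell in 1 GC group and differed. That group (42.1% to 44.2%) held RRM2 at 43.4% GC and RRM1 at 43.9%. Its median log2 difference was −0.073, and RRM1 lay close to it (−0.072) whereas RRM2 was at 0.13. SAMHD1, in the same group at 44.0% GC, was at 0.041. After the fit on length and GC content the log2 difference was 0.22 for RRM2, 0.13 for TK1, 0.11 for SAMHD1 and 0.065 for DTYMK. It was close to 0 and of the opposite sign for RRM1 (0.0054) and DCK (0.0063), while RRM2B was at −0.12, against −0.19 before the fit. When the fit used only a gene's longest transcript, not the median over its transcripts, RRM2 was at 0.17, TK1 and SAMHD1 at 0.11, RRM2B at −0.057, DTYMK at −0.00042, RRM1 at −0.023 and DCK at −0.054. DCTD was at 0.034 and 0.022 under the respective fits and DUT at 0.046 and 0.042, while TYMS was at −0.023 and −0.070. On the counts, the log2 differences of RRM2, TK1, SAMHD1, DCTD and DUT were thus positive with and without either fit. Those of RRM2B and TYMS were negative, and the signs of RRM1, DCK and DTYMK depended on the fit. These are signs alone, as no counting interval is given for the fitted values.

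**Figure D3:**
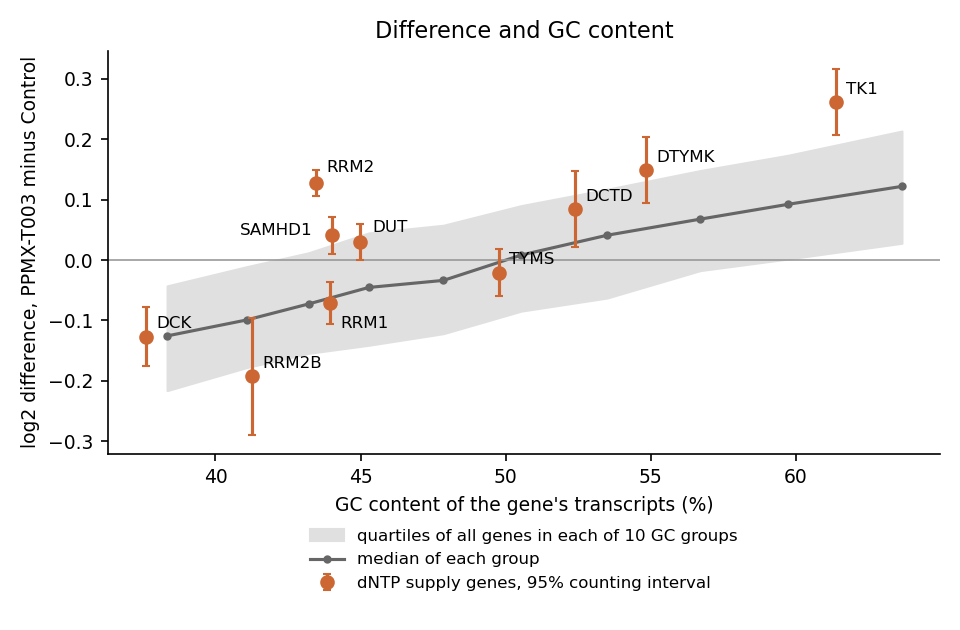
Log2 difference, PPMX-T003 minus Control, against the GC content of the gene's transcripts in percent. The line and grey band are the median and quartiles of each of the 10 GC groups, into which the 9949 genes of the fit were cut. The labelled points are the 10 genes with 95% counting intervals. RRM2 (43.4% GC, 0.13) was 1 of 4 genes above the quartiles of their group, and DCK (37.6% GC, −0.13) 1 of 5 within them.

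Some of these genes share exon sequence with neighbours. TYMS overlaps ENOSF1 on the opposite strand over 39.1% of its exon bases, and ENOSF1 had 513 counts in Control and 683 in PPMX-T003, a log2 difference of 0.53 (0.36 to 0.70), whereas TYMS and ENOSF1 summed gave 0.0077 (−0.030 to 0.045). DCK shares 6.17% of its exon bases with MOB1B on the same strand, which had 1099 and 853 counts and a log2 difference of −0.25 (−0.38 to −0.12). RRM2 shares 20.2% with the gene model AC007240.1 on the same strand, DUT 14.5% with an opposite-strand model, and SAMHD1 10.3% with TLDC2 on the opposite strand, which had 0 and 4 counts. The library kit marked strand, but the strand setting of the counting was not given in the sources used here, so reads of the overlaps cannot be told apart. Of the 6 pseudogene entries of RRM2, DUT and TYMS, RRM2P3 had 4 and 8 counts, and RRM2P2, DUTP1, DUTP5, DUTP8 and TYMSP2 were at 0 in both libraries.

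The rest of the pathway was examined through 10 lists with 142 genes. Of the 35 genes named beside the dNTP supply set, 21 moved out of their counting interval under the length and GC fit without changing sign, so the size of many of these differences depended on that fit. For each count of intervals above or below 0 in these lists, the shares over all 13665 genes were 21.8% above and 23.9% below, and those over genes with at least 1000 counts 27.8% and 32.1%. Small differences in both directions were the rule, and the list with the highest share of intervals above 0 was iron delivery and assembly of the small subunit's cofactor. Of its 12 genes tested, 8 lay above 0, 1 below and 3 held 0, with a median log2 difference of 0.099 against −0.0020 over all 13665 genes. The median of the list was 0.091 after the length and GC fit. FTL, the ferritin light chain, had 13325 counts in Control and 14233 in PPMX-T003 (log2 difference 0.21), and BOLA2, a partner in iron-sulfur cluster handling, had 1123 and 1412 (0.45). NCOA4, the receptor for ferritin breakdown, was lower, with 10869 and 9507 counts (−0.076). STEAP3 was at 0 in both libraries. BOLA2 shares 74.2% of its exon bases with the read-through gene BOLA2-SMG1P6, and summed with that gene and with its copy BOLA2B the log2 difference was 0.14 (0.091 to 0.19).

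Genes that work beside ribonucleotide reductase had small differences. Of 7 electron donor genes, 2 lay above 0 and 1 below, with a median log2 difference of 0.031 (−0.0044 after the length and GC fit). TXN (thioredoxin) had 9409 counts in Control and 9558 in PPMX-T003 (log2 difference 0.14) and TXN2 3918 and 3945 (0.13), whereas the reductase TXNRD1 had 12622 and 10863 (−0.099). Of 6 genes that govern the turnover of these proteins, CCNF, which brings RRM2 to its ubiquitin ligase, had 5097 and 4936 counts (0.071) and CUL1 had 20281 and 16775 (−0.16), and the other 4 intervals held 0 (list median 0.017, or −0.031 after the fit with the longest transcript).

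The other nucleotide kinases were divided, with 5 of 17 above 0 and 4 below and a median log2 difference of −0.023. GUK1, the guanylate kinase, had 4663 counts in Control and 5190 in PPMX-T003 (log2 difference 0.27), and NME2 had 20321 and 20795 (0.15; −0.034 after the fit with the longest transcript). CMPK2, a mitochondrial UMP/CMP kinase, had 3250 and 2312 counts (−0.37), past 1.2-fold lower, and AK3 had 2846 and 2262 (−0.21). Among 18 nucleotidases, phosphorylases and pool-cleaning enzymes, 6 lay above 0 and 4 below, with a median of 0.092 that was 0.0074 after the length and GC fit and −0.029 with the longest transcript. The 5′ nucleotidase NT5C had 1001 and 1192 counts (0.37) and the aldolase DERA 416 and 504 (0.39), while NT5C3A had 1483 and 1192 (−0.20) and NT5C2 4125 and 3445 (−0.14). NT5E, NT5C1B and the cytidine deaminase CDA were at 0 in both libraries.

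In the folate cycle, which feeds the TYMS reaction, 4 of 11 genes lay above 0 and 2 below, with a median log2 difference of 0.027 (−0.032 on the TPM scale). MTHFS had 970 counts in Control and 1152 in PPMX-T003 (log2 difference 0.36) and FPGS, which retains folates in the cell, 2847 and 2900 (0.14). MTHFD1L had 4219 and 3579 (−0.12). Of 9 transporters 6 could be tested, with 2 above 0, 1 below and a median of 0.016 (−0.0089 on the TPM scale). SLC29A1, the main equilibrative nucleoside transporter, had 5830 and 5923 counts (0.14) and SLC29A3 had 219 and 256 (0.34), whereas SLC25A36, a mitochondrial pyrimidine nucleotide carrier, had 4956 and 4089 (−0.16). SLC29A2, SLC28A1 and SLC28A2 were at 0 in both libraries. On the counts, the folate cycle genes and the transporters thus held differences of both signs. The only transporter with an interval below 0 was the mitochondrial carrier SLC25A36. The salvage kinases TK1 and DCK also differed in sign. MTHFS and SLC29A3 passed 1.2-fold, and no other tested gene of these lists did.

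S phase genes under E2F control, the company in which RRM2, TK1 and TYMS are usually found, had 9 of 20 intervals above 0 and 2 below, with a median log2 difference of 0.065 (0 on the TPM scale). CDT1, a licensing factor, had 3112 counts in Control and 3517 in PPMX-T003 (log2 difference 0.29) and MCM2 had 25527 and 25870 (0.14). POLA1 had 5335 and 4508 (−0.13; −0.0070 after the length and GC fit) and CCNA2 9657 and 8603 (−0.049; 0.047 after the length and GC fit). Of the 20 E2F and related factors themselves, 6 lay above 0 and 8 below, with a median of −0.021. That median was −0.0028 after the length and GC fit, −0.0048 with the longest transcript and −0.071 on the TPM scale. MYC had 14303 and 14942 counts (0.18) and E2F4 9073 and 9524 (0.19), while SP1 had 5360 and 4240 (−0.22) and RBL2 3208 and 2580 (−0.20). Of the 15 tested genes of the p53 pathway, to which RRM2B belongs, 4 lay above 0 and 5 below, with a median of −0.038. DDB2 had 699 and 808 counts (0.33) and BAX 2397 and 2630 (0.25), TNFRSF10B had 1619 and 1201 (−0.31) and MDM2 5996 and 4861 (−0.19), and CDKN1A had 0 and 2. RRM2B was thus on the same side as MDM2 and TNFRSF10B and on the other side from DDB2 and BAX.

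**Figure D4:**
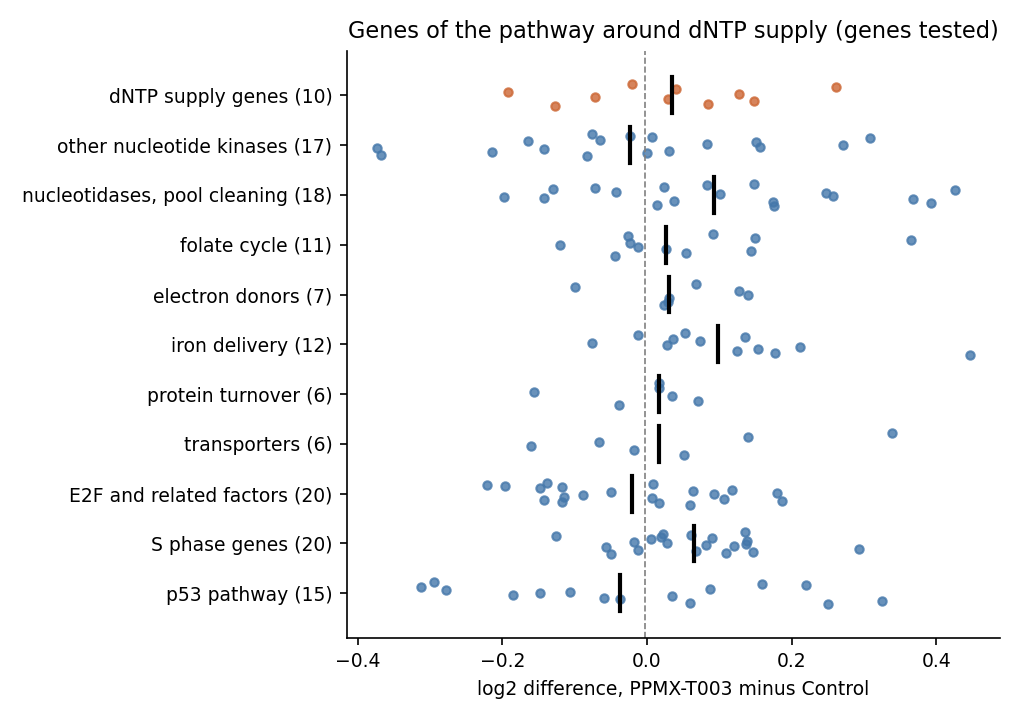
Log2 difference, PPMX-T003 minus Control, of each tested gene of the dNTP supply set (orange) and of the 10 lists around it (blue), with the number of genes tested in brackets, each list's median as a black bar and the median of all tested genes (−0.0020) as a dashed line. The medians lay between −0.038 (p53 pathway) and 0.099 (iron delivery), and that of the 10 dNTP supply genes was 0.035.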

How the data were processed

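The deposited table gives read counts, FPKM and TPM per gene, which the authors made from NK92 polyA RNA with Trimmomatic 0.38, HISAT2 2.2.0 (build hg38) and StringTie 2.1.3b. The deposited count values carry commas between digits, which were removed. The deposited TPM and FPKM values are rounded to whole numbers and were therefore recorded as a score; FPKM was not used. The columns headed 0 h and 6 h were taken as Control and PPMX-T003; by the study's methods, Control was cultured for the same 6 h. There were 0 other columns of per-sample values.

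Counts were scaled by TMM, written in Python 3.11.15 (numpy 2.4.6, pandas 2.3.3, scipy 1.17.1), with factors of 1.00 and 0.999, and log2 differences used a prior count of 2. The 13665 genes with at least 20 counts over both libraries were tested. Intervals are exact 95% Clopper-Pearson intervals of the PPMX-T003 share of a gene's counts, turned into log2 ratios; ratios between genes have 95% log odds intervals. All cover counting error only, and no p-value was computed because each group is 1 library. Counts at or under 3 in both libraries were taken as not detected. The 2 entries that shared a symbol with others were merged.

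Differences were also fitted on transcript length and GC content (statsmodels 0.14.6, 9949 genes; GENCODE release 29; values for 87.5% of tested genes and for all 10 dNTP supply genes). Promoter windows came from RefSeq (GRCh38.p14), with entries for 9 of the 10. Named beside them were TFRC and, from each list, up to 2 genes with at least 100 counts whose intervals lay farthest above 0 and up to 2 farthest below. Of these, 1 gene is not reported here. Genes and lists were chosen with earlier results of these data known. Neighbours, pseudogenes and summed loci were named after their values were seen. Alternatives tried were other scalings, prior counts, count filters, protein-coding genes alone, TPM, and the length and GC fits.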

Additional observations from a re-analysis of the deposited data

How the results depend on the processing

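Under library size, upper-quartile and median-of-ratios scaling and prior counts of 0.5 and 5, each difference of a named gene kept its sign and stayed within its counting interval, and each count of genes past a fold stayed within 1.5 times. Small moves still crossed limits: under upper-quartile scaling TK1 (0.27) passed 1.2-fold and DUT (0.041) left 0, so that 6 of the 10 genes had intervals above 0, and TYMS was at −0.0087. With a prior count of 5, 120 genes were at least 2-fold higher and 127 lower, against 173 and 188. List medians kept their sign under the prior counts and count filters, but not their size: the other kinases went from −0.023 to −0.059 (at least 1 count) and −0.00021 (at least 200), the p53 pathway from −0.038 to −0.0014 and −0.048, transporters from 0.016 to 0.051 and nucleotidases from 0.092 to 0.060 (both at least 200). Larger moves follow, and the cause was not tested.

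With transcript length and GC content removed, RRM1 was at 0.0054 and DCK at 0.0063, both with the sign reversed, RRM2 at 0.22, DTYMK at 0.065, TK1 at 0.13 and SAMHD1 at 0.11. CCNA2 (0.047) changed sign, as did the median of the electron donors (−0.0044). The median of the nucleotidases was 0.0074, and that of the transporters 0.052. Past 2-fold were 94 genes higher and 120 lower, and past 1.2-fold 998 and 1109; the genes with length and GC values alone, an alternative chosen after seeing the data, gave 104 and 113, and 1167 and 1280, without the fit. Of the 35 other named genes, 21 did not change sign but left their counting interval under this fit, 24 under the next and 13 on TPM, among them TFRC (0.17 and 0.15 under the fits), MDM2 (−0.021 with the longest transcript) and SLC29A3 (0 on TPM). The change of the ratio TK1 to DCK was 0.12 under this fit, a comparison chosen after seeing the data; the other 4 ratios stayed within their intervals.

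With the longest transcript in that fit, also chosen after seeing the data, RRM1 was at −0.023, RRM2 at 0.17, RRM2B at −0.057, TYMS at −0.070, TK1 at 0.11, DCK at −0.054 and SAMHD1 at 0.11. DTYMK (−0.00042), NME2 (−0.034) and the medians of the nucleotidases (−0.029) and of protein turnover (−0.031) changed sign. Past 2-fold were 92 genes higher and 123 lower, and past 1.2-fold 970 and 1116.

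On the deposited TPM with a pseudocount of 1, RRM1 was at −0.12, RRM2 at 0.075, TYMS at −0.068, DUT at −0.021 (0.029 on counts), DCTD at 0, DTYMK at 0.088, TK1 at 0.20 and DCK at −0.19. DUT, SAMHD1 (−0.038) and the medians of the 10 dNTP supply genes (−0.030), the folate cycle (−0.032) and the transporters (−0.0089) changed sign, and the medians of the nucleotidases, the S phase genes, the electron donors and the p53 pathway were 0. Over 6112 genes at 20 TPM or more, the TPM difference lay below the count difference by a median of −0.054. The median of the genes with at least 1000 counts was −0.055 on TPM. Against it DUT was at 0.034, SAMHD1 at 0.016 and the median of the 10 genes at 0.025, each above 0 as on the counts. The medians of the folate cycle and the transporters also lay above −0.055. On TPM, 217 genes were at least 2-fold higher and 286 lower, and 926 were at least 1.2-fold higher and 1754 lower.

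With all genes of at least 1 count, 1448 genes were at least 2-fold higher and 1033 lower, and 3937 and 3840 passed 1.2-fold. With at least 200 counts these were 13 and 8, and 595 and 740. With protein-coding genes alone they were 77 and 87, and 939 and 1068. These settings changed which genes were tested.

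No paired analysis was possible because the groups held a single library each, and with no replicates none was left out in turn. Counting intervals do not hold the variation between cultures, so a difference between these libraries is not a measured effect of the antibody. RRM2B, with 1919 and 1548 counts, had the widest interval of the 10 genes. Rounding limits the TPM of low genes, such as the 19 and 16 of RRM2B.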

Other observations

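The NK cell markers, used to check the line, differed in both directions. Of 14 markers, 9 had a counting interval above 0 and 3 below. Their median log2 difference was 0.091, or 0.034 after the length and GC fit. Of all 13665 genes, 21.8% lay above 0 and 23.9% below. Of the genes with at least 1000 counts, 27.8% lay above 0 and 32.1% below. GZMB (granzyme B) had 34265 counts in Control and 38124 in PPMX-T003, a log2 difference of 0.27 (0.25 to 0.29), and the T-box factor TBX21 had 16085 and 17584 (0.25, 0.21 to 0.28). The receptor NCR1 had 1764 and 1408 counts (−0.21, −0.31 to −0.11). On the counts, TBX21 and GZMB thus lay higher and NCR1 lower, by about as much as TK1 and RRM2B. After the length and GC fit TBX21 was at 0.18, GZMB at 0.22 and NCR1 at −0.27, against 0.13 for TK1 and −0.12 for RRM2B. TBX21, GZMB and NCR1 were picked after their values were seen.

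In the neighbourhood of the dNTP supply genes, ENOSF1 had a larger log2 difference (0.53) than any of the 10, and its locus partner TYMS did not differ beyond counting error. TRBC1, the T cell receptor constant gene seen here while CD3D was at 0, had 3664 counts in Control and 4100 in PPMX-T003 (0.28, 0.21 to 0.34), while TRAC had 1501 and 1312 (−0.077, −0.18 to 0.031). NME1, NME2 and their read-through gene NME1-NME2 summed to 37234 and 37526 counts, a log2 difference of 0.13 (0.11 to 0.15).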
